A study of Mus musculus with 6 samples.

Results

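Chemokines are small secreted proteins that steer the movement of white blood cells, and their receptors are G protein-coupled receptors on the cells that respond. The genes described here are the mouse chemokines and chemokine receptors taken by symbol (Ccl, Cxcl, Cx3cl, Xcl, Ccr, Cxcr, Cx3cr and Xcr names, protein coding), without the lymphoid organising genes Cxcl13, Cxcr5, Ccl19, Ccl21a and Ccr7 and without Ccrl2. This gave 56 of the 52636 genes counted, 39 for ligands and 17 for receptors, under 53 different symbols. Of these, 20 had at least 10 counts in at least 3 libraries and are called measurable here, 15 ligands and 5 receptors, and 36 did not. Each of the 20 reached 10 counts in at least 1 library of both groups, so 0 of them passed through a single group alone.

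RNA was sequenced from the parotid salivary gland, a gland made largely of acinar cells that secrete saliva, of FVB mice, an inbred laboratory strain, labelled as 28 days old. The untreated group held 3 libraries and the irradiated group 3, from mice given a single radiation dose of 5 Gy. The sentence naming the dose stands on all 6 samples, and was applied here to those labelled as treated. The labels give neither the time from irradiation to collection nor whether each sample was a separate mouse. The p-values therefore reflect only the spread among these samples, which may be technical.

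Ligands are named by the spacing of their first cysteines (CC, CXC, CX3C and XC), and receptors by the ligand class they bind. Inflammatory chemokines are induced by cytokines and microbial signals and draw neutrophils, monocytes, dendritic cells or effector T cells, whereas others, such as Cxcl12, Cxcl14 and Ccl28, are made steadily by stromal or epithelial cells. Several ligands usually share a receptor, and most receptors accept several ligands. Ccl28 is a mucosal chemokine made by salivary gland epithelium, and it draws antibody-secreting cells that carry Ccr10.

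Gene counts totalled 7108359 to 15036193 per library, the lowest in irradiated replicate 2, where 10.01% of reads were not aligned against 3.75% to 4.33% elsewhere. The members together reached 280.2 to 288.8 CPM (counts scaled to a library total of 1000000, here before TMM factors) in untreated libraries and 284.3 to 340.3 CPM in irradiated ones. TMM factors ran from 0.901 in untreated replicate 2 to 1.17 in irradiated replicate 2, the library at 340.3 CPM. These sums are therefore not on the scale of the CPM given below. Cxcl12 and Ccl28 alone made up 65.3% to 73.7% of the members' counts. The labelled tissue was checked with 8 acinar markers, of which 8 passed the filter. Together they stood at 401199 to 485200 CPM untreated and 365064 to 463204 CPM irradiated, most of it from Bpifa2 and Amy1. Of the 8 markers, 1 fell (0.349% of all tested genes): Car6, a secreted carbonic anhydrase of saliva, at -0.79 (edgeR adjusted p = 0.0329), while limma-voom called 0 of the 8. Prol1, another of the 8, stood at 441.5 CPM in irradiated replicate 2 and at 32.7 to 40.8 CPM elsewhere. In a bulk gland, fewer cells of a type and less RNA per cell cannot be told apart.

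**Figure D1:**
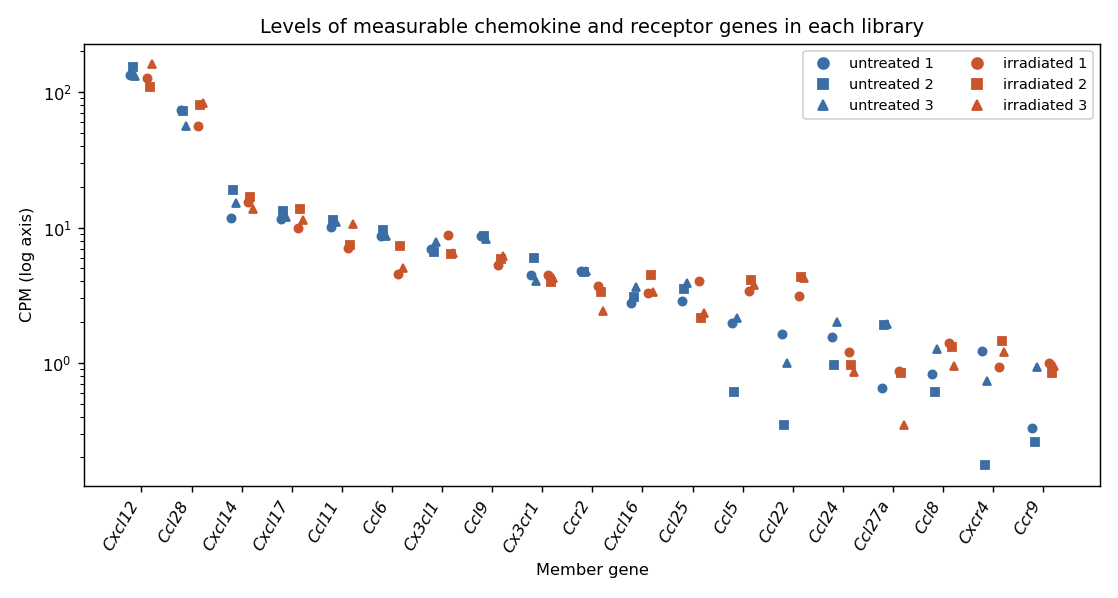
Expression in CPM (log axis) of measurable members in each library, untreated in blue and irradiated in orange, with a symbol for each replicate and genes ordered by mean level. Cxcl12 and Ccl28 stood above 50 CPM in every library, and Ccl22 and Ccl5 were higher in all 3 irradiated libraries than in the untreated ones.

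Between irradiated and untreated glands, 1 of the 20 measurable members passed the test over all genes (edgeR's quasi-likelihood test, adjusted p under 0.05): Ccl22, a chemokine of dendritic cells and macrophages that draws T cells carrying Ccr4, rose 3.82-fold. Over all 12885 genes tested, 1.00% passed in either direction, 0.652% higher and 0.349% lower. At an unadjusted p under 0.05 there were 6 members of 20 (30%), against 15.0% of all genes. These were Ccl22 and Ccl5 with higher values (7.51% of all genes) and Ccl6, Ccl9, Ccr2 and Ccl27a with lower ones (7.46%). None of the 20 was called lower by edgeR, DESeq2 or limma-voom. In either direction DESeq2 called 1.48% of all genes and Ccl22, limma-voom called 0.194% of all genes and no member, edgeR without robust shrinkage called 0.202% and no member, and edgeR with no count filter called 2.04% and 3 members (Ccl22, Ccl5 and Ccl6). The groups did not overlap for 5 members of 20 (25%), a share near the 21.2% of all genes: Ccl22 and Ccl5 were higher (10.6% of all genes) and Ccl6, Ccl9 and Ccr2 lower (10.6%). The median log2 fold change of the 20 was -0.03, beside -0.01 over all genes, and 10 of the 20 had a positive value, beside 49.1% of all genes. The middle of the members lay wider than that of all genes, with quartiles of -0.42 and 0.34 against -0.19 and 0.19. Several members had few counts, such as Ccl27a (4 to 29 per library) and Ccr9 (3 to 15). The part of low counts in this width was not tested.

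**Figure D2:**
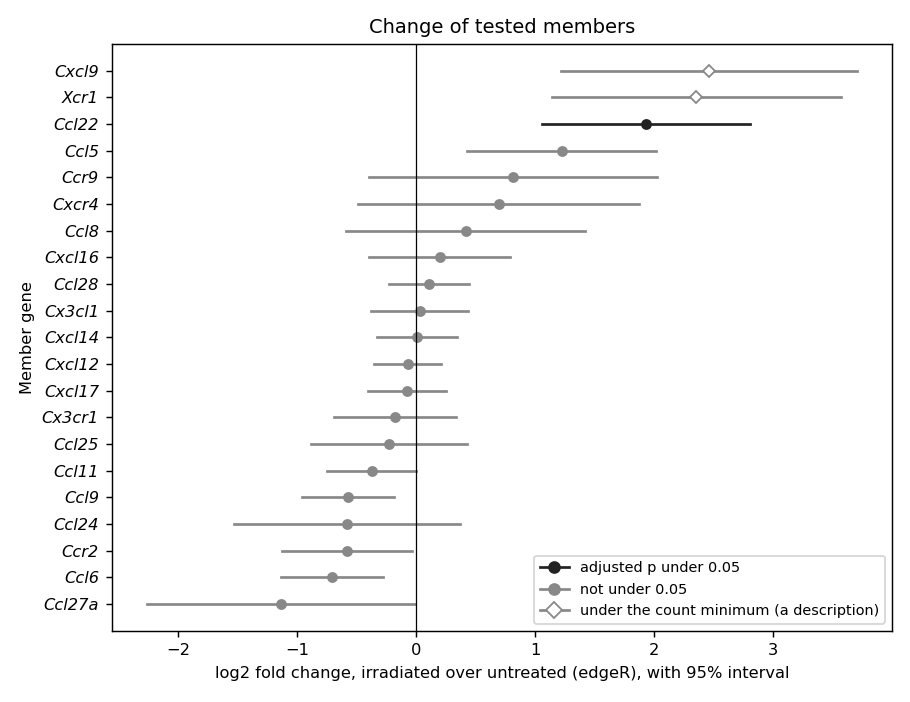
Log2 fold change, irradiated over untreated, of members in the edgeR fit, with 95% intervals. Ccl22 (dark) passed the adjusted threshold, and the open diamonds are Cxcl9 and Xcr1, which lay under the count minimum and are a description.

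The bases before the start sites of 4 genes are shown, chosen after their values were seen: Ccl22, the member called, Cxcl9, which had the highest log2 fold change just under the count minimum, and Ccl6 and Ccl9, genomic neighbours with lower values after irradiation. Each is the 250 bases 5′ of the start in the RefSeq annotation of GRCm38.p6, without 94 bases of Ccl22 that GENCODE places inside the gene, read 5′ to 3′ on the gene's own strand, at chr8:94745434-94745589 (plus strand), chr5:92328080-92328329 (minus), chr11:83593088-83593337 (minus) and chr11:83578637-83578886 (minus). Capitals mark matches to the NF-kB-like motif (GGG, any 5 bases, CC) or its form on the other strand (GG, any 5 bases, CCC).
Ccl22: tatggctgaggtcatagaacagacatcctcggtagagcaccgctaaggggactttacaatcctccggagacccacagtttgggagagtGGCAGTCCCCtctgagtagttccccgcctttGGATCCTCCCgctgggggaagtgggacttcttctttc
Cxcl9: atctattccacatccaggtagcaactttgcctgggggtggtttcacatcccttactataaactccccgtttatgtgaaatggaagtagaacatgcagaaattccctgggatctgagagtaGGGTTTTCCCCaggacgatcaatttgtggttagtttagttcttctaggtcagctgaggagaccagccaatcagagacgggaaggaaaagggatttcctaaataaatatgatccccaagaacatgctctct
Ccl6: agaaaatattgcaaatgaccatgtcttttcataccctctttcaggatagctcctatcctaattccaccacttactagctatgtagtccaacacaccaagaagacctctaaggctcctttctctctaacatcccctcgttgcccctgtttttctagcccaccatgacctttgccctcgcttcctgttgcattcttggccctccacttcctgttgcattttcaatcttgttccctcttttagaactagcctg
Ccl9: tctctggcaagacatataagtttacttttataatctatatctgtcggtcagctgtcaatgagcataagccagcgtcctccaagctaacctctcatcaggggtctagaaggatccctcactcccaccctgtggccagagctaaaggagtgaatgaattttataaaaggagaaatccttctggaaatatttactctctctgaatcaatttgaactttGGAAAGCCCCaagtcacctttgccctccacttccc
NF-kB is a transcription factor known to induce many inflammatory chemokines. The motif matched at 2 places in Ccl22 (-162 to -153 and -131 to -122 from the start site), at 2 overlapping places in Cxcl9 (-130 to -121 and -129 to -120) and at 1 place in Ccl9 (-35 to -26). It is a loose motif, present in 45.8% of the 32851 RefSeq promoters of that length, and in 23 of the 39 member genes with a promoter there. The first share is over promoters and the second over genes, each counted if any of its promoters matched. They are therefore not comparable. Motifs of interferon-responsive elements (GAAA, any 2 bases, GAAA, 2.98% of promoters) and of joint ETS and IRF sites (GGAA, any 2 bases, GAAA, 2.30%) were searched on both strands as well and had no match in these 4. The reference is of another strain than the mice, and a match is letters only.

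Ccl22 (ENSMUSG00000031779; chromosome 8, 94745590 to 94751699, plus strand, build mm10) had 1.64, 0.349 and 0.999 CPM in the untreated libraries and 3.12, 4.32 and 4.22 CPM in the irradiated ones, from 20, 4 and 15 counts against 47, 36 and 49. Every irradiated library stood above every untreated one, and untreated replicate 2 was the lowest of all. The means were 0.997 ± 0.647 and 3.89 ± 0.665 CPM (SD, n = 3 each), giving 1.93 on the log2 scale (SE 0.42, 95% interval 1.06 to 2.81; edgeR adjusted p = 0.0286). The call held without untreated replicate 1 (2.44, adjusted p = 0.0129) and was lost without any other library. The edgeR log2 fold change and adjusted p were 1.56 and 0.0782 without untreated replicate 2, 1.93 and 0.0726 without untreated replicate 3, 2.08 and 0.0661 without irradiated replicate 1, 1.86 and 0.0665 without irradiated replicate 2, and 1.86 and 0.0715 without irradiated replicate 3. It was also lost in edgeR without robust shrinkage (adjusted p = 0.0973) and in limma-voom (0.095), and held in DESeq2 (0.0045). With the replicate numbers taken as pairs, the edgeR adjusted p was 0.0892.

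The chemokine genes Cx3cl1 and Ccl17 also lie on chromosome 8, downstream of Ccl22. Cx3cl1, the membrane-bound fractalkine that binds Cx3cr1, begins 20.3 kb beyond the end of Ccl22, and its log2 fold change was 0.03 (SE 0.20, 95% interval -0.38 to 0.44). Its level was 6.90, 6.63 and 7.86 CPM untreated and 8.84, 6.36 and 6.46 CPM irradiated, with overlapping groups, and the sign turned without irradiated replicate 1 or untreated replicate 2. Ccl17, the other ligand of Ccr4, had 0 to 3 counts in any library. Ccr4 itself, a receptor of helper and regulatory T cells, was at 0 in all untreated libraries and at 1, 3 and 6 counts after irradiation, too few to test.

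T cell markers were higher in the same libraries as Ccl22. Their summed level over 12 genes was 17.2, 1.57 and 16.7 CPM in the untreated libraries and 37.7, 55.1 and 42.7 CPM in the irradiated ones, lowest in untreated replicate 2 as for Ccl22. All 12 were tested and 2 rose, against 0.652% of all genes (Cd5, an inhibitory surface protein of T cells, at 2.95, and Cd8b1, a subunit of CD8, at 2.76). Their median log2 fold change over the 12 was 1.90. B and plasma cell markers summed to 10.8 to 33.2 CPM untreated and 38.9 to 45.5 irradiated, with 1 of 8 called (Bank1, a B cell signalling adaptor, at 2.32). In limma-voom 0 of the 12 T cell and 0 of the 8 B and plasma cell markers passed (0.194% of all genes). DESeq2 called 4 of the 12 and 1 of the 8 (1.48% of all genes). At an unadjusted p under 0.05 by edgeR stood 10 of the 12 and 4 of the 8 (15.0% of all genes). Dendritic cell markers summed to 4.01 to 7.06 and 7.41 to 8.52 CPM, with 3 of 7 tested and none called by edgeR, DESeq2 or limma-voom or at an unadjusted p under 0.05. No marker of these lists was at 3 or fewer counts over all libraries. The part of these cells in the values of Ccl22 and of Ccl5, described next, was not tested.

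**Figure D3:**
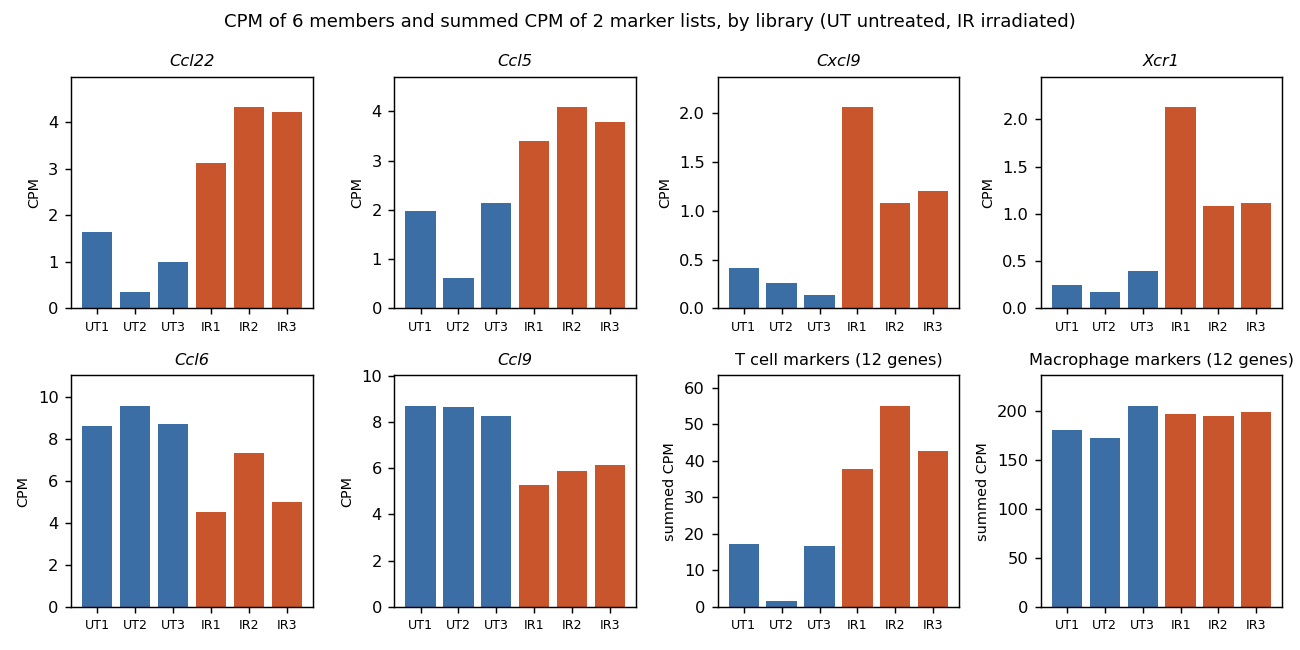
Bars give the CPM of 6 members, and the summed CPM of 12 T cell and 12 macrophage markers, in each untreated (UT, blue) and irradiated (IR, orange) library. Ccl22, Ccl5 and both marker sums were lowest in untreated replicate 2, with the T cell sum at 1.57 CPM and the macrophage sum, which includes the abundant Lyz2, at 172.1 CPM there.

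Ligands of inflammatory receptors such as Ccr1, Ccr2 and Ccr3 draw monocytes, eosinophils and activated T cells. Of 12 CC ligands listed under these receptors, 6 were measurable (Ccl5, Ccl6, Ccl8, Ccl9, Ccl11 and Ccl24). Of these, 0 passed by edgeR, DESeq2 or limma-voom, and the median log2 fold change was -0.47. By edgeR 3 stood at an unadjusted p under 0.05 (15.0% of all genes), Ccl5 with higher values and Ccl6 and Ccl9 with lower ones. Ccl5, a CC chemokine made by T and natural killer cells, had 1.97, 0.611 and 2.13 CPM untreated and 3.39, 4.08 and 3.79 CPM irradiated. The groups did not overlap, and untreated replicate 2 was again the lowest. Its log2 fold change was 1.22 (SE 0.38) at an edgeR adjusted p of 0.121, and 0.86 (adjusted p = 0.286) without untreated replicate 2. Natural killer cell markers summed to 2.18 to 3.53 CPM untreated and 2.33 to 3.72 irradiated.

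Ccl6 and Ccl9, ligands of Ccr1 made by macrophages and other myeloid cells, lie 9.25 kb apart on chromosome 11, and Ccl5 lies 42.4 kb from Ccl9. Ccl6 (83587882 to 83593087, minus strand) had 8.62, 9.60 and 8.72 CPM in untreated libraries and 4.52, 7.32 and 5.00 CPM in irradiated ones. Its log2 fold change was -0.70 (SE 0.21, 95% interval -1.13 to -0.28) with an edgeR adjusted p of 0.100. Ccl9 (83572919 to 83578636, minus strand) had 8.71, 8.64 and 8.26 CPM untreated and 5.25, 5.88 and 6.12 CPM irradiated, giving -0.57 on the log2 scale (SE 0.18, adjusted p = 0.135). Each untreated library stood above each irradiated one for both genes, and neither passed. Scaled by library totals, the changes were -0.54 for Ccl6 and -0.43 for Ccl9. Of 11 tested markers of macrophages and monocytes, cells that make both, 0 were called by edgeR, DESeq2 or limma-voom, and 8 had negative log2 fold changes. In 4 of the 11 the irradiated libraries all stood below the untreated ones (Csf1r at -0.29, C1qc at -0.28, C1qa at -0.20 and Cd68 at -0.32), as they did in 10.6% of all genes. Lyz2, the lysozyme of myeloid cells and the most abundant of the list, stood at 0.43 with every irradiated library above the untreated ones. Lyz2 and Csf1r were the 2 of 11 at an unadjusted p under 0.05 by edgeR (15.0% of all genes). The list summed to 172.1 to 205.0 CPM untreated and 194.6 to 198.3 CPM irradiated, and without Lyz2, a sum added after seeing the data, to 106.0 to 127.6 CPM untreated and 101.0 to 110.1 CPM irradiated. The part of these cells in the values of Ccl6 and Ccl9 was not tested.

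**Figure D4:**
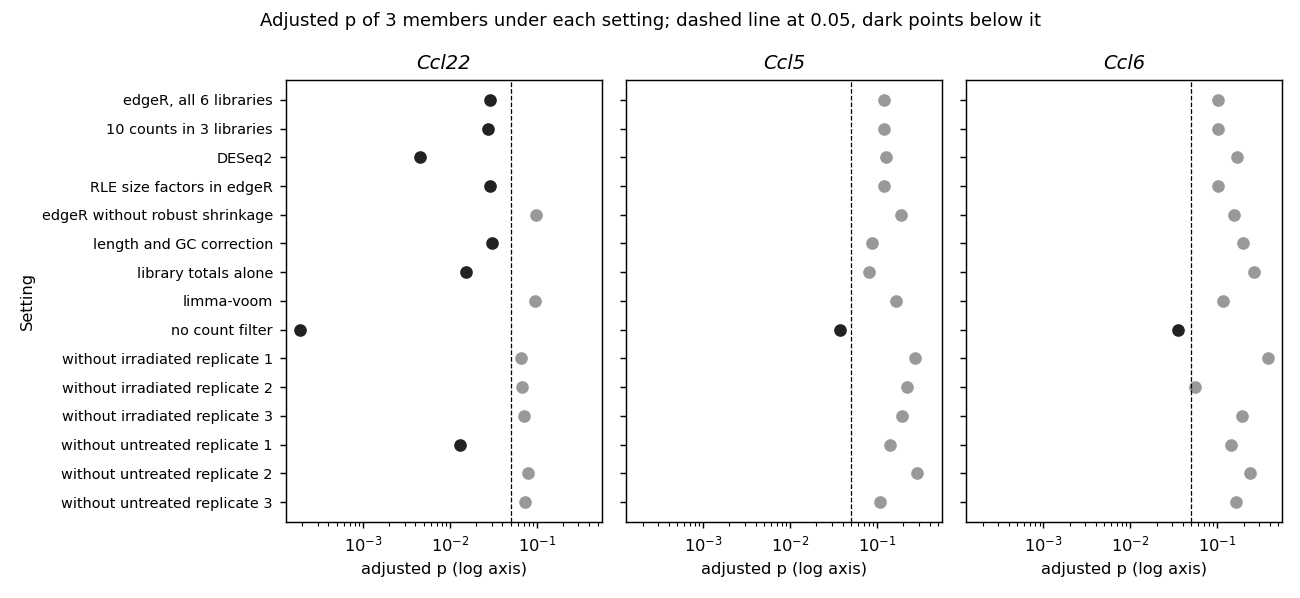
Adjusted p (log axis) of Ccl22, Ccl5 and Ccl6 under the settings that change the test, the scaling, the filter or the libraries, with a dashed line at 0.05 and dark points below it. Ccl22 passed in all 6 libraries by edgeR and DESeq2 but in 1 of the 6 sets that leave out a library, and Ccl5 and Ccl6 passed with no count filter and in no other setting shown.

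Ccl11 (eotaxin) and Ccl24, ligands of Ccr3 that draw eosinophils, had log2 fold changes of -0.37 (SE 0.18, adjusted p = 0.335) and -0.58 (SE 0.45, adjusted p = 0.603). Ccl11 stood at 10.8 ± 0.650 CPM untreated and 8.36 ± 1.95 CPM irradiated (SD, n = 3), and the groups overlapped for both. Ccl8 had 0.611 to 1.27 CPM untreated and 0.948 to 1.40 CPM irradiated, 0.42 on the log2 scale (SE 0.48). The monocyte chemokine Ccl2 had 0, 2 and 2 counts untreated and 2, 7 and 6 irradiated, Ccl7 had 0 to 9 counts and Ccl12 1 to 15. The macrophage inflammatory proteins Ccl3 and Ccl4 had at most 2 counts in any library.

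Of the CXC ligands Cxcl12, Cxcl14, Cxcl16 and Cxcl17, all 4 were measurable and none passed by edgeR, DESeq2 or limma-voom, or at an unadjusted p under 0.05. Cxcl12, the stromal ligand of Cxcr4, had 133.7, 153.2 and 131.2 CPM untreated and 126.8, 109.2 and 161.4 CPM irradiated, a log2 fold change of -0.07 (SE 0.13, 95% interval -0.35 to 0.21). Irradiated libraries lay on both sides of the untreated ones. Cxcl14, an epithelial and stromal chemokine, had a log2 fold change of 0.00 (95% interval -0.33 to 0.34). Cxcl17, a chemokine of mucosal epithelium, stood at -0.08 (-0.40 to 0.25). The sign turned when scaled by library totals for Cxcl12 and Cxcl17, also without irradiated replicate 2 for the former and without irradiated replicate 1 or with the length and GC correction for the latter, and that of Cxcl14 with no count filter and without some libraries. Cxcl16, a membrane-bound ligand of Cxcr6, stood at 0.20 (-0.39 to 0.79). For Cxcl12 the interval leaves out a change of 1.5-fold either way.

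Among the other CC ligands, Ccl28 had 74.5, 72.3 and 56.7 CPM in untreated libraries and 55.9, 80.4 and 83.2 CPM in irradiated ones. The groups overlapped, and the log2 fold change was 0.11 (SE 0.15, 95% interval -0.23 to 0.44, adjusted p = 0.799). Its sign turned without untreated replicate 3 and without irradiated replicate 3. Ccr10, a receptor of Ccl28, had 1 to 4 counts in any library. Ccl25, which binds Ccr9, stood at -0.23 (SE 0.31). Ccl27a, a skin chemokine that binds Ccr10, had 0.657, 1.92 and 1.93 CPM untreated and 0.864, 0.840 and 0.345 CPM irradiated, a log2 fold change of -1.13 (SE 0.54, adjusted p = 0.330). Ccl27a has near-identical copies (Ccl27b and 2 genes named Ccl27) at 0 or 1 count, and reads shared by copies stood in a separate row of the tables, so its value is uncertain.

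Levels were compared between genes per kilobase of transcript, using the mean length of a gene's transcripts. Over all 6 libraries the highest ligands were Cxcl12 at 40.2 ± 5.56 CPM per kilobase (SD, n = 6), Ccl28 at 27.5 ± 4.54, Cxcl17 at 15.8 ± 1.82, Cxcl14 at 9.27 ± 1.49 and Ccl11 at 8.87 ± 1.73. Cxcl14, Ccl11 and Ccl6 (8.24 ± 2.37) did not differ beyond their spread, and their order depended on the group: the untreated means were 9.25 for Cxcl14, 10.01 for Ccl11 and 10.1 for Ccl6, and the irradiated means 9.30, 7.73 and 6.34 CPM per kilobase. Among receptors, Cx3cr1 at 1.19 ± 0.191 CPM per kilobase and Ccr2 at 1.09 ± 0.268 lay within their spread, and their order turned between untreated (1.27 and 1.31) and irradiated glands (1.11 and 0.873). Below them stood Cxcr4 at 0.704 ± 0.336 and Ccr9 at 0.189 ± 0.0875. With the longest transcript in place of the mean, the same 5 ligands led over all 6 libraries.

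Of the 5 measurable receptors, 0 passed by edgeR, DESeq2 or limma-voom, and Ccr2 was the 1 at an unadjusted p under 0.05 by edgeR (15.0% of all genes). Ccr2, the receptor of inflammatory monocytes, had 4.76, 4.71 and 4.79 CPM in untreated libraries and 3.72, 3.36 and 2.41 CPM in irradiated ones. Each irradiated library was lower, with a log2 fold change of -0.58 (SE 0.26, 95% interval -1.13 to -0.04) and an adjusted p of 0.295. Cx3cr1, a receptor of resident macrophages, stood at -0.18 (SE 0.24, 95% interval -0.69 to 0.33). Cxcr4 had 1.23, 0.175 and 0.732 CPM untreated and 0.930, 1.44 and 1.21 CPM irradiated, lowest in untreated replicate 2. Its log2 fold change was 0.69 (SE 0.57), 0.27 without untreated replicate 2 and 1.28 without untreated replicate 1. Ccr9, a gut-homing receptor, stood at 0.81 (SE 0.58), from 4, 3 and 14 counts untreated and 15, 7 and 11 irradiated, just inside the count minimum. The value for Ccr9 was 0.53 without untreated replicate 2 and 1.63 without untreated replicate 3. For Cxcr4 and Ccr9 the intervals reach past 2-fold, so a change of that size is not excluded.

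Just outside the minimum lay Cxcl9, Xcr1 and Ccr6, with 10 or more counts in 2 libraries each. Cxcl9, an interferon-induced ligand of Cxcr3 that draws T cells, had 5, 3 and 2 counts untreated and 31, 9 and 14 irradiated (0.411, 0.262 and 0.133 against 2.06, 1.08 and 1.21 CPM). Xcr1, the receptor that marks conventional type 1 dendritic cells, had 3, 2 and 6 counts untreated and 32, 9 and 13 irradiated. Both were kept in the edgeR fit only through their irradiated libraries, so they had to differ, and their values are a description. The log2 fold changes were 2.46 (SE 0.59) for Cxcl9 and 2.35 (SE 0.58) for Xcr1. Irradiated replicate 1 was the highest for each, and without it they stood at 2.09 and 1.93. Ccr6, a receptor of B cells and some helper T cells, had 7, 1 and 0 counts untreated and 12, 13 and 9 irradiated and was not kept in the fit.

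The partners of these genes were sparse. Cxcr3 had 5, 1 and 6 counts untreated and 6, 5 and 2 irradiated. Of its other induced ligands, Cxcl10 had 1 or 2 counts in every library, and Cxcl11, not a member by the rule, had 0 to 2. Xcl1, the ligand of Xcr1, had 0 to 2 counts, and Ccl20, the ligand of Ccr6, 0 to 3. Clec9a, another marker of Xcr1-bearing dendritic cells, had 4, 7 and 8 counts untreated and 16, 4 and 0 irradiated, so it was highest in the same library as Xcr1 but not higher in the group. Other untested dendritic cell markers differed among themselves. Flt3 had 3, 0 and 2 counts untreated and 8, 9 and 11 irradiated, higher in every irradiated library. Batf3 had 1, 4 and 2 untreated and 3, 2 and 3 irradiated, and Cd209a 11, 5 and 7 in either group. Cxcr6, a receptor of tissue-resident T cells, had 3, 2 and 6 counts untreated and 7, 10 and 8 irradiated.

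**Figure D5:**
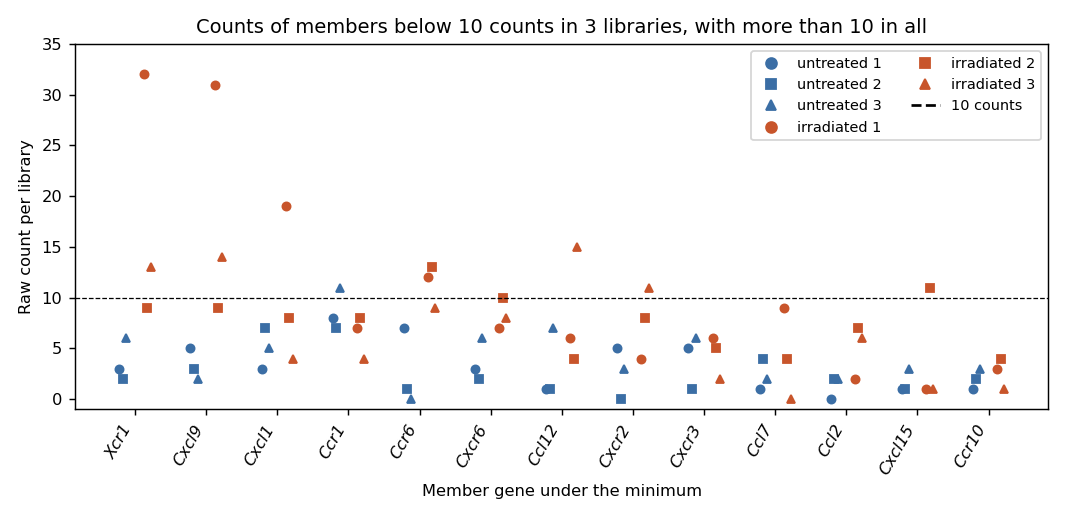
Raw counts per library of the 13 members under the minimum with more than 10 counts in all 6 libraries together, untreated in blue and irradiated in orange, with a dashed line at 10 counts. Xcr1 and Cxcl9 reached 32 and 31 counts in irradiated replicate 1 and at most 6 in any untreated library.

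The neutrophil-attracting CXC ligands were not measurable. Cxcl2 and Cxcl3 had 0 counts in every library, Cxcl5 0 to 4, Cxcl1 3, 7 and 5 untreated and 19, 8 and 4 irradiated, and Cxcl15 at most 3 except for 11 in irradiated replicate 2. Their receptor Cxcr2 had 5, 0 and 3 counts untreated and 4, 8 and 11 irradiated, and Cxcr1 had 0. Neutrophil markers summed to 0.349 to 0.932 CPM untreated and 0.948 to 1.33 CPM irradiated, with Ly6g and Elane at 0. Of the 36 members under the minimum, 9 were at 0 in every library (Ccl1, Ccr8, Cxcl2, Cxcl3, Cxcr1, Ccl21c, 2 genes named Ccl21b and 1 named Ccl27). A count of 0 allows up to 3 counts, or 0.199 to 0.360 CPM depending on the library, for counting error only. A further 14 had 1 to 10 counts over all 6 libraries together: Ccl3, Ccl4, Ccl17, Ccl20, Ccl26, Ccl27b, Ccr1l1, Ccr3, Ccr4, Cxcl5, Cxcl10, Xcl1, and 1 gene each named Ccl21b and Ccl27. The other 13 were Ccl2, Ccl7, Ccl12, Ccr1, Ccr6, Ccr10, Cxcl1, Cxcl9, Cxcl15, Cxcr2, Cxcr3, Cxcr6 and Xcr1.

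Genes that scavenge chemokines, carry receptor signals or induce chemokines were read from the same fit. Of 3 tested atypical receptors, which bind chemokines without G protein signalling, none was called by edgeR, DESeq2 or limma-voom, none stood at an unadjusted p under 0.05, and all 3 had negative log2 fold changes. The smallest p values were those of Ackr2, a scavenger of inflammatory CC ligands, at -0.79 (SE 0.58), and Ackr3, which takes up Cxcl12, at -0.34 (SE 0.32). Of 22 tested genes of receptor signalling, 0 passed by edgeR (1.00% of all genes), 2 by DESeq2 and 0 by limma-voom (1.48% and 0.194%), 9 stood at an unadjusted p under 0.05 by edgeR (15.0%), and 22 of 22 had a positive log2 fold change (49.1% of all genes), with a median of 0.56. Dock2, which links chemokine receptors to Rac in white blood cells, stood at 1.14 (SE 0.27, adjusted p = 0.066), and Jak3, a lymphocyte kinase, at 1.08 (SE 0.28, adjusted p = 0.0686). The groups did not overlap for either, and many genes of this list are made by lymphocytes, whose markers had higher sums as given above. Their part in these values was not tested.

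Of 16 tested inducing cytokines and factors 1 rose (0.652% of all genes), and 10 had a positive log2 fold change, with a median of 0.04. Irf8, a transcription factor of dendritic cells, macrophages and B cells, had 4.27, 1.75 and 3.06 CPM untreated and 9.30, 8.76 and 9.05 CPM irradiated, giving 1.57 on the log2 scale (SE 0.25, edgeR adjusted p = 0.00321). Interferon-responsive Irf1 stood at -0.08 (SE 0.19). Ifng, Il6 and Il17a had 0 counts in every library, Il1b 0 to 4, and Tnf 2, 2 and 3 untreated and 13, 3 and 1 irradiated. Tnfaip3 and Nfkbia, targets and inhibitors of NF-kB, stood at 0.88 (SE 0.33, adjusted p = 0.197) and -0.32 (SE 0.12, adjusted p = 0.200). The NF-kB subunits Rel and Relb stood at 0.67 (SE 0.25, adjusted p = 0.201) and 0.67 (SE 0.30, adjusted p = 0.292). Nfkb1, Nfkb2 and Rela, the other subunits, stood at 0.15, 0.30 and 0.03. At an unadjusted p under 0.05 by edgeR were 5 of the 16 (15.0% of all genes): Irf8, Tnfaip3, Nfkbia, Rel and Relb.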

How the data were processed

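There were 3 untreated and 3 irradiated parotid RNA libraries, made with a strand-specific total RNA kit, per the labels. The values the authors deposited are raw read counts per Ensembl gene. The submitters' processing notes name bcl2fastq, HISAT2, HTSeq and build mm10. Their versions, the annotation release and the strand setting are not given in the sources used here, so overlapping antisense genes cannot be separated (Zmynd15 covers 18.3% of the exon bases of Cxcl16). Rows naming no gene held 32.4% to 40.7% of reads, 13.3% to 18.4% being reads with several alignments, and were left out.

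Symbols, coordinates and lengths came from GENCODE M21 (mm10), which matched 52489 of 52636 genes. The test was edgeR 4.0.16 (R 4.3.3), quasi-likelihood with robust shrinkage, TMM and filterByExpr (minimum count 10), with Benjamini-Hochberg adjustment over 12885 genes. CPM are counts scaled by total and TMM factor. SE is the absolute log2 fold change over the square root of F. DESeq2 1.42.0, limma-voom 3.58.1, other scalings and filters, a length and GC correction, a replicate block and leaving out each library were alternatives. The procedure was tested on simulated counts. Libraries differed beyond sampling noise (chi-square per degree of freedom at least 12.8 for any pair). Measurable members are named, except 1 receptor counted with them that is not reported here, with full statistics for those past the threshold, at an unadjusted p under 0.05, among the highest per length, or in fixed ligand and receptor pairs. Members, lists and motifs were chosen with earlier results of these data known.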

Additional observations from a re-analysis of the deposited data

How the results depend on the processing

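Over all genes, 84 were higher and 45 lower. The counts were 21 and 5 without robust shrinkage, 20 and 5 in limma-voom, 259 and 22 scaled by library totals (which moved the median of all genes to 0.14), 279 and 239 with no count filter, 70 lower in DESeq2 and 28 lower with the length and GC correction, and 31 to 83 higher and 14 to 72 lower leaving out 1 library. Of the 20 measurable members, 1 was higher and 0 lower. The count of higher members was 0 without robust shrinkage and in limma-voom, and 2 with no count filter (Ccl22 and Ccl5), where 1 was lower (Ccl6). It ran from 0 to 1 leaving out 1 library. With a replicate block, taking the numbers in the sample titles as pairs, the counts were 39 higher and 14 lower, with 0 members higher, and 42 and 15, also with 0 members, when joined with the length and GC correction. Same-numbered libraries did not deviate together (correlations of 0.02, -0.11 and -0.11). No pairing by number was therefore visible, but so few libraries cannot exclude one. The members' median was 0.12 scaled by library totals. Of 350 alternative values of single members, 16 turned sign, in genes near no change, and the cause was not tested. Scaled by totals, Cxcl12 stood at 0.0647 and Cxcl17 at 0.0808. Cxcl17 stood at 0.0888 with the length and GC correction and at 0.0882 with the replicate block added, where Ccl28 stood at -0.0121. Cxcl14 was -0.00563 with no filter. Leaving out 1 library gave ranges of -0.00521 to 0.271 for Ccl28, -0.155 to 0.107 for Cx3cl1, -0.242 to 0.0497 for Cxcl12, -0.151 to 0.178 for Cxcl14 and -0.198 to 0.0394 for Cxcl17. Members under the count minimum had too few counts for a test of their own.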
